A study of Homo sapiens with 12 samples.

Results

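The transcripts described here are those of 9 enzymes of the pentose phosphate pathway and of cytosolic and mitochondrial NADPH production, PGLS, PGD, TKT, TALDO1, RPIA, RPE, ME1, IDH1 and NNT, chosen by their gene symbols from the 23615 genes of the deposited tables. All 9 were found, all 9 passed the filter on low counts, and each is given below whatever its values were. RNA was sequenced after rRNA removal from HEK293T cells, a human embryonic kidney line, that carried either a hairpin against HuR (shHuR) or a control hairpin (shControl), introduced by lentivirus and selected with puromycin. HuR, encoded by ELAVL1, is an RNA-binding protein that binds AU-rich stretches of many mRNAs. Cells of each line were left untreated or were given 25 µM HNE(alkyne), an alkyne-tagged form of the lipid-derived electrophile 4-hydroxynonenal, or 225 µM H2O2, an oxidant, for 18 h before the RNA was taken. Each of the 6 combinations had 2 samples described as biological replicates, 12 libraries in all, and each line was represented by 1 hairpin, so that a difference between the lines cannot be told apart from a difference between 2 selected populations or from an effect of the hairpin on other transcripts.

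The pentose phosphate pathway branches from glycolysis. Its oxidative branch yields NADPH, and its non-oxidative branch interconverts sugar phosphates and links ribose 5-phosphate, the precursor of nucleotides, with glycolytic intermediates. NADPH is the reductant used by the glutathione and thioredoxin systems, which clear peroxides and aldehydes such as HNE, and malic enzyme 1, isocitrate dehydrogenase 1 and nicotinamide nucleotide transhydrogenase are sources of it outside the pathway. ME1 and several pentose phosphate enzymes are known targets of NRF2, the transcription factor that electrophiles activate through KEAP1.

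The libraries held between 24855946 and 29907258 estimated counts, and the 9 transcripts had from 442 to 9932 counts in each library. ELAVL1, the target of the hairpin, was at 86.0 to 99.4 CPM (counts scaled to the normalized library size) in the 6 shControl libraries and at 69.3 to 74.5 CPM in the 6 shHuR libraries, a log2 difference of -0.38 (SE 0.041, adjusted p = 2.60e-06). HMOX1, a heme oxygenase gene induced by electrophiles, rose with HNE by 1.44 on the log2 scale over both lines (adjusted p = 9.83e-06). Of the HEK293T markers, NEFL, VIM and LIN28B were at 66.3 CPM or more in every library, NEFM was low at 3.40 to 11.8 CPM and PAX2 was nearly absent at 0.144 to 0.491 CPM. Their 5-gene sum was 814 to 889 CPM in shControl and 642 to 701 CPM in shHuR, so it differed between the lines as some results below do, and its part in them was not tested. The markers of other cell types were at or near 0, up to 0.219 CPM, except the fibroblast gene COL1A1 at 2.17 to 4.86 CPM. Replicate 2 of HNE-treated shControl cells had the largest share of small non-coding RNA (1.32%) and differed most from its partner. In bulk RNA, fewer cells with a transcript and less of it per cell cannot be told apart.

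Per unit of length, on the deposited FPKM scale (fragments scaled to gene length and library size), the transketolase transcript TKT was the most abundant of the 9, with a mean of 164 FPKM over the 12 libraries. Transaldolase (TALDO1) at 118 FPKM and 6-phosphogluconate dehydrogenase (PGD) at 108 FPKM came next, and although their ranges overlapped, TALDO1 was above PGD in all 12 libraries. The middle of the order was held by ribulose-phosphate epimerase (RPE) at 46.9 FPKM and the cytosolic isocitrate dehydrogenase IDH1 at 43.5 FPKM. RPE exceeded IDH1 in 10 libraries. The mitochondrial proton-pumping transhydrogenase NNT had a mean of 27.9 FPKM and 6-phosphogluconolactonase (PGLS), which opens the lactone ring in the oxidative branch, 24.6 FPKM, with overlapping ranges. Ribose 5-phosphate isomerase (RPIA) at 17.1 FPKM and malic enzyme 1 (ME1) at 7.06 FPKM were the lowest. RPIA overlapped PGLS in range, and ME1 lay below RPIA in all 12 libraries.

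**Figure D1:**
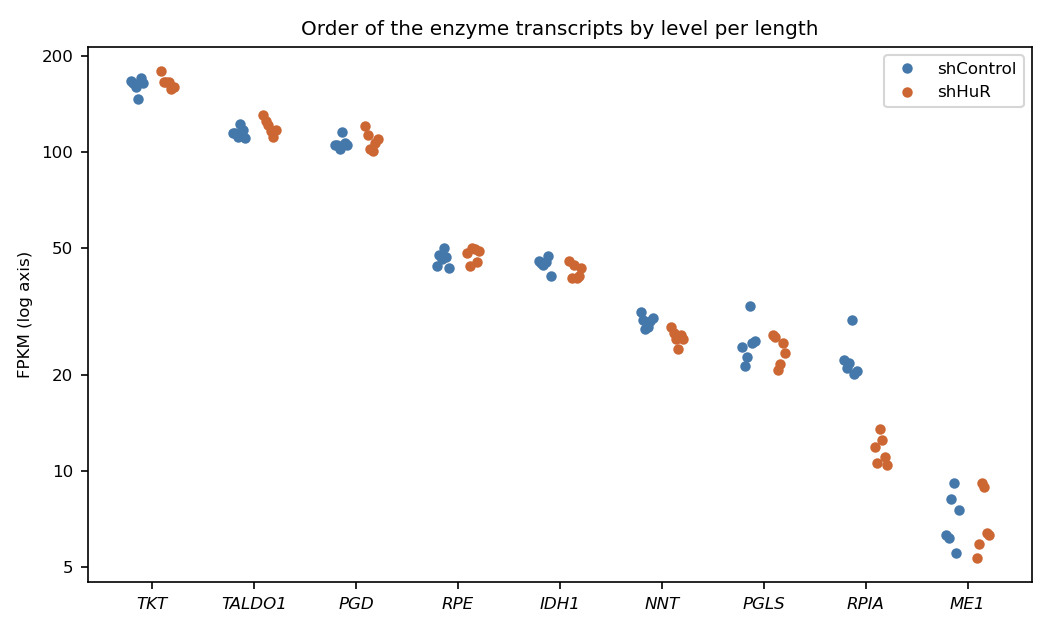
Deposited FPKM of each transcript on a log axis, with 1 point per library (6 shControl, 6 shHuR), in order of the mean over 12 libraries. TKT is highest (mean 164 FPKM) and ME1 lowest (mean 7.06 FPKM), and RPIA is the only one of the 9 whose points split into 2 separate groups by line.

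The first question was how the lines differed in these transcripts, and the answer was carried by RPIA, the isomerase that forms ribose 5-phosphate. RPIA was 47.5% to 49.8% lower in shHuR cells than in shControl cells with each treatment, and NNT was slightly lower over all 12 libraries. The other 7 transcripts did not pass the test between the lines. RPIA was called in untreated, HNE-treated and H2O2-treated cells, 1 of 9 transcripts in each, where 7.98%, 8.27% and 7.19% of all genes tested were called. Over all treatments 2 of 9 were called, both lower in shHuR, where 29.9% of all genes tested were called in either direction and 15.9% were lower. These shares are near the background and are no result about the 9 as a group. The median log2 difference of the 9 was -0.05, and that of all 16005 genes tested was -0.0018.

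RPIA was at 37.2 and 35.0 CPM in untreated shControl libraries, 36.4 and 49.9 CPM after HNE and 33.6 and 34.5 CPM after H2O2. In shHuR it was at 19.7 and 17.6 CPM untreated, 22.5 and 20.8 CPM after HNE and 18.4 and 17.3 CPM after H2O2. Every shHuR library was below every shControl library, with counts of 484 to 572 against 885 to 1221. The shControl mean was 37.8 ± 6.10 CPM (SD, n = 6) and the shHuR mean 19.4 ± 1.99 CPM (SD, n = 6), 48.5% lower as fitted, a log2 difference of -0.96 (SE 0.070, 95% interval -1.10 to -0.81, adjusted p = 3.92e-08). This placed RPIA at rank 37 by p among the 16005 genes tested. By treatment the log2 difference was -0.95 without treatment, -0.99 with HNE and -0.93 with H2O2, each with an SE of 0.13, and the adjusted p was 0.000815, 0.000636 and 0.000954 in that order. With HNE it was -0.75 without replicate 2 of the HNE-treated shControl cells and -1.20 without replicate 1, and it passed the test both ways.

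The 21-base guide strand of the shHuR hairpin, its target in ELAVL1, and the stretches of the RPIA, ME1 and TALDO1 transcripts that hold the guide's seed site are printed because RPIA had the largest line difference of the 9. Capitals mark the seed (bases 2 to 8 of the guide) or the 7 bases AGTTTGC that pair with it.
shHuR guide: tGCAAACTtcactgtgatggg
ELAVL1 target: cccatcacagtgaAGTTTGCa
RPIA: cttctgaatattgAGTTTGCt
ME1: caagagaaagagaAGTTTGCc
TALDO1: gacgggatccgcaAGTTTGCc
The RPIA site lies in the 3′ UTR, in exon 9 of 9, at chr2:88750417-88750437 (GRCh38, GENCODE 29, plus strand), and 11 of the 21 bases are those of the target. The ME1 site is in coding exon 10 of 14, at chr6:83228893-83228913 on the minus strand, with 13 bases shared, and the TALDO1 site in coding exon 7 of 8, at chr11:764380-764400 on the plus strand, with 10 shared. The other 6 transcripts had none. The seed site, searched for on the transcript strand, occurs in 19.9% of 19584 annotated transcripts, one per gene, and in 9% of their 3′ UTRs. Of the 1420 tested genes with it in the 3′ UTR, 19.7% were called lower and 17% higher in shHuR over all treatments, and their median log2 difference was -0.0051. For the 11918 tested genes without it there, 15.7% were called lower and 15.1% higher, and the median was 0.0043. The 2 genes most like RPIA over the libraries, KIAA1147 (log2 difference -0.34) and NFKBIL1 (-0.65), hold no seed site, as most transcripts do not. They were chosen by their likeness to RPIA, which splits by line, so their lower level in shHuR is no separate result. A match of 7 letters describes the sequence only, and whether the hairpin acts on RPIA was not tested.

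**Figure D2:**
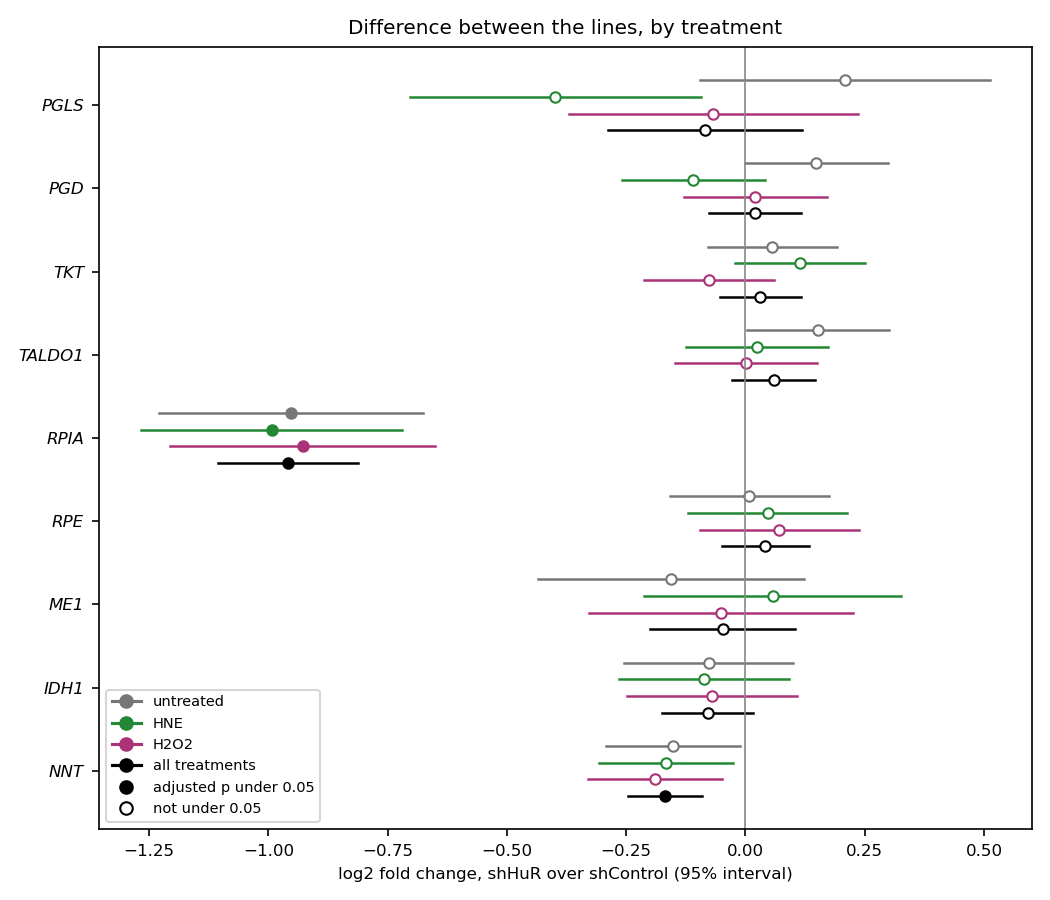
Log2 fold change of shHuR over shControl for each transcript with its 95% interval, in untreated, HNE-treated and H2O2-treated cells and over all treatments; filled points had an adjusted p under 0.05 in the edgeR test. RPIA lies near -1 in all 4 rows, NNT is slightly below 0 in all 4 and filled only over all treatments.

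NNT, which couples the mitochondrial proton gradient to NADPH formation, was at 144 and 136 CPM in untreated shControl libraries, at 127 and 129 CPM in those given HNE and at 135 and 138 CPM in those given H2O2. The shHuR levels in the same order were 129 and 123, 118 and 110, and 121 and 118 CPM. Within each treatment both shHuR libraries were below both shControl libraries, while across treatments the ranges overlapped, since untreated shHuR replicate 1 was above HNE-treated shControl replicate 1. The shControl mean was 134.8 ± 6.18 CPM (SD, n = 6) and the shHuR mean 119.9 ± 6.28 CPM (SD, n = 6), a log2 difference of -0.17 (SE 0.037, 95% interval -0.25 to -0.09, adjusted p = 0.00221). By treatment it was -0.15, -0.17 and -0.19 in untreated, HNE-treated and H2O2-treated cells, with adjusted p of 0.179, 0.138 and 0.0980, none of which passed the threshold.

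None of the remaining members passed the test between the lines, and the intervals show what sizes are left for them. Over all treatments IDH1 was at 91.9 ± 4.72 CPM in shHuR and 97.1 ± 4.32 CPM in shControl (SD, n = 6 each), a log2 difference of -0.08 (95% interval -0.17 to 0.02). PGLS was at 20.3 ± 2.09 CPM in shHuR and 21.6 ± 3.46 CPM in shControl (SD, n = 6 each), a log2 difference of -0.085. TKT, TALDO1, PGD, RPE and ME1 lay between -0.05 and 0.06 on the log2 scale, with adjusted p of 0.309 to 0.786. TALDO1, the transaldolase that moves 3-carbon units between sugar phosphates, was higher in both untreated shHuR libraries (138 and 132 CPM) than in both untreated shControl libraries (122 and 122 CPM), a log2 difference of 0.15 (adjusted p = 0.208).

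PGLS and PGD, the 2 enzymes of the oxidative branch among the members, lay on different sides of 0 in different treatments without passing the test in any. In untreated cells PGLS was at 20.7 and 18.1 CPM in shControl and 22.5 and 22.2 CPM in shHuR. With HNE it was at 19.3 and 28.0 CPM in shControl and 17.5 and 18.3 CPM in shHuR. Both shHuR libraries were thus above both shControl libraries when untreated and below them with HNE, and the shControl HNE replicates were far apart. The line difference for PGLS was 0.21 untreated (adjusted p = 0.410) and -0.40 with HNE (SE 0.14, adjusted p = 0.102) on the log2 scale. The HNE value was -0.63 (adjusted p = 0.00440) without replicate 1 of HNE-treated shControl cells and -0.11 (adjusted p = 0.609) without replicate 2. PGD, which makes NADPH and ribulose 5-phosphate, had line differences of 0.15 untreated and -0.11 with HNE, with adjusted p of 0.219 and 0.368.

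**Figure D3:**
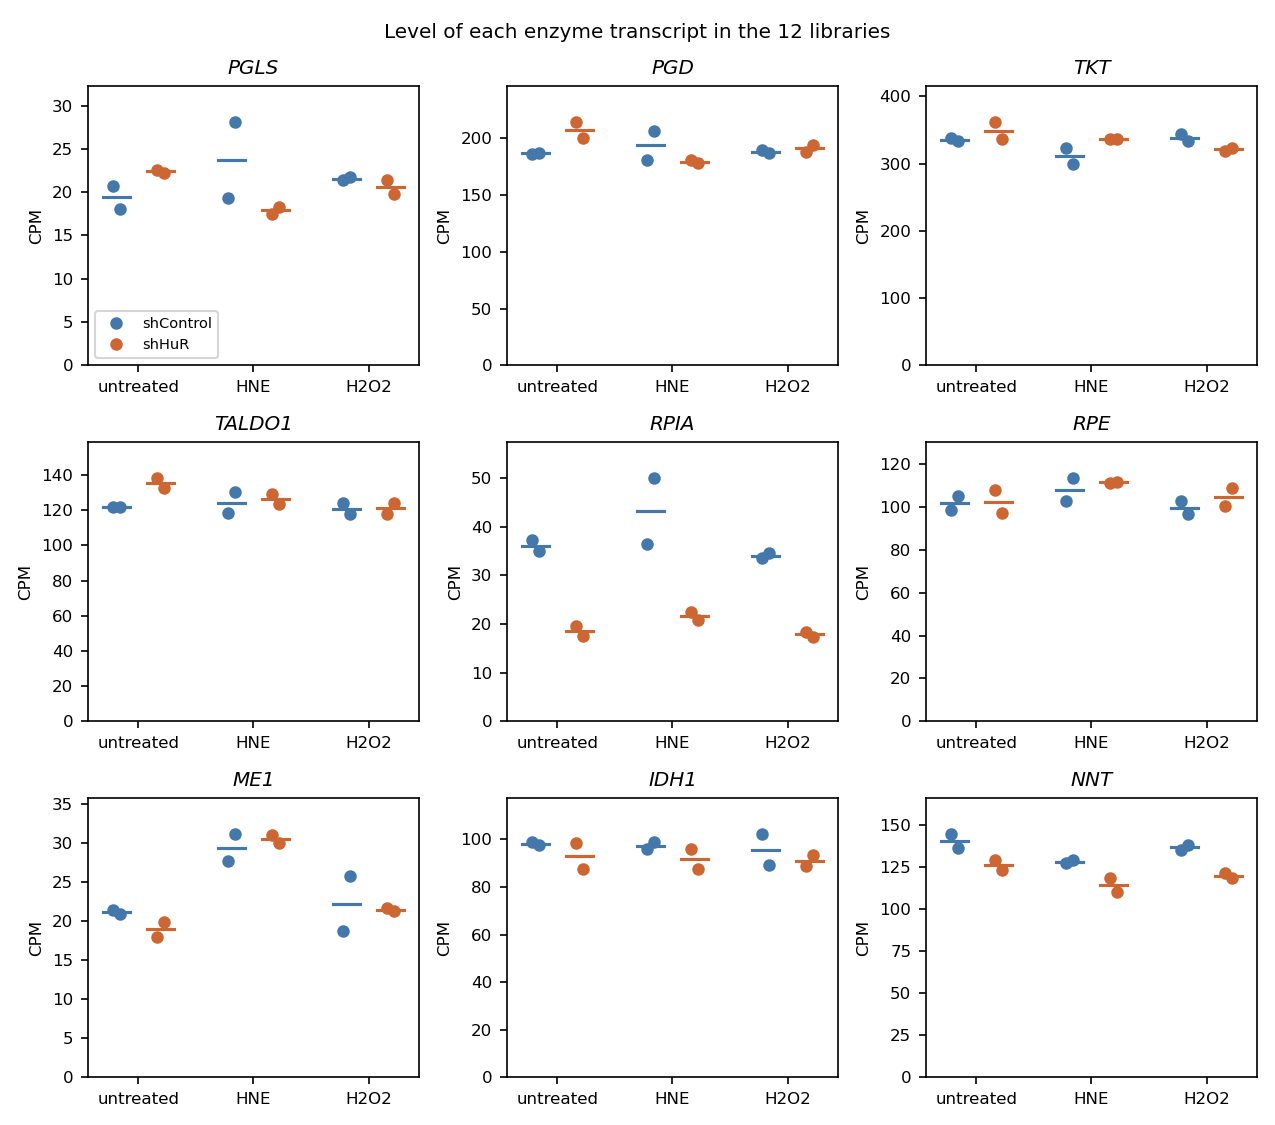
Level of each transcript in CPM (axis from 0) in the 12 libraries; points are libraries, bars the mean of the 2 replicates of a group, blue shControl and orange shHuR. RPIA separates by line with every treatment, and ME1 is highest in the 4 HNE libraries. PGLS and RPIA are highest in 1 library, replicate 2 of HNE-treated shControl cells. RPE and ME1 are also highest in that library, by a small margin.

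The second question was how HNE changed the transcripts. ME1, the cytosolic malic enzyme that forms NADPH while turning malate into pyruvate, was the only member called over both lines. It rose by 49.4% as fitted. It was 1 of 9 called, where 0.247% of all 15780 genes tested were called in either direction and 0.101% of all genes tested were called higher. In each line taken alone no member was called, where 0.0187% of all genes were called in shControl and 0.075% in shHuR. At an unadjusted p under 0.05 in edgeR there were 1 member in shControl and 4 in shHuR, against 11.7% and 8.95% of all genes. At an adjusted p under 0.05 DESeq2 called 71 genes in shControl, none of them a member, and 107 genes in shHuR, of which ME1 was 1. Over both lines the median log2 change of the 9 was -0.01, and that of all genes tested was 0.00022.

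ME1 was at 21.4 and 20.9 CPM in untreated shControl and at 27.7 and 31.1 CPM with HNE. In shHuR it was at 18.0 and 19.9 CPM untreated and at 31.1 and 30.0 CPM with HNE. All 4 HNE libraries were above all 4 untreated libraries. The change over both lines was 0.58 on the log2 scale (SE 0.077, 95% interval 0.42 to 0.74, adjusted p = 0.00740), rank 6 by p among 15780 genes. It was 0.47 in shControl (SE 0.13, adjusted p = 0.229) and 0.69 in shHuR (SE 0.13, adjusted p = 0.0658), the second just outside the threshold, and DESeq2 called it in shHuR (adjusted p = 0.000898). The difference between the lines in the ME1 response was 0.21 (95% interval -0.17 to 0.60, adjusted p = 0.820). Over both lines the call was lost with limma on log2 FPKM (adjusted p of 0.0611 to 0.169), without untreated shHuR replicate 2 (adjusted p = 0.0940) and without HNE-treated shHuR replicate 2 (adjusted p = 0.0579). The change itself was 0.51 to 0.63 in all 18 alternatives.

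The promoter of ME1 is printed because ME1 was the only member called with HNE over both lines. NRF2 is also known to act through the antioxidant response element. The core of this element, TGACNNNGC, was searched for on both strands of 300-base promoters (250 bases before to 50 after the start, RefSeq, GRCh38.p14). Capitals mark the matches, and the ME1 stretch is chr6:83431002-83431301 on the minus strand, printed in the direction of the gene.
ME1: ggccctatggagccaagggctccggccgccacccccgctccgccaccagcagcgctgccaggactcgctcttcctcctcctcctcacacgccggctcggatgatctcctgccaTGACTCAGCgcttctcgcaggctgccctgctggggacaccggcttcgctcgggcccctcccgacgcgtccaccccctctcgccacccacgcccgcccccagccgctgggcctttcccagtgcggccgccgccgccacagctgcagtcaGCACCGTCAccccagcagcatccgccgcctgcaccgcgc
PGD: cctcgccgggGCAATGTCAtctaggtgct
RPE: ggcggacggcTGACAGCGCcccaccccag
IDH1: cccctctcgcTGACTCCGCccatcccacg
ME1 holds TGACTCAGC starting 137 bases before the start and, on the other strand, GCACCGTCA starting 11 bases after it. The windows of 29 bases show the single matches of PGD (on the other strand, 201 bases before the start, chr1:10398853-10398881), RPE (151 bases before, chr2:210002477-210002505) and IDH1 (143 bases before in 1 of its 2 promoters, chr2:208255196-208255224, minus strand). No match was found in the windows of PGLS, TKT, TALDO1, RPIA and NNT. In the same search NQO1, an electrophile response gene, and FTL, the ferritin light chain, had no match. HMOX1 was not among the promoters searched. TXNRD1, another electrophile response gene, had matches on both strands. Elements outside the 300 bases were not searched for. The core occurs in 13.3% of 35116 promoters of this length. PGD, RPE and IDH1 had a match in a promoter, and their transcripts did not pass the HNE test. Their log2 changes over both lines were -0.08, 0.10 and -0.01.

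Outside ME1, the HNE changes over both lines ran from -0.13 (NNT) to 0.24 (RPIA) on the log2 scale. RPIA had a change of 0.24 (SE 0.093, unadjusted p = 0.0239, adjusted p = 0.328). In shControl its change of 0.25 rested on 1 library, since it was 0.01 without replicate 2 of the HNE-treated cells and 0.46 (adjusted p = 0.0237) without replicate 1. NNT had a change of -0.13 (SE 0.051, unadjusted p = 0.0202, adjusted p = 0.310), and its values were -0.13 in shControl and -0.14 in shHuR. For TKT, the transketolase that moves 2-carbon units, the change was -0.08 (95% interval -0.19 to 0.03), and for TALDO1 -0.03 (95% interval -0.15 to 0.09).

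PGLS and PGD had opposite signs in the lines. With HNE, PGLS had a log2 change of 0.29 in shControl (adjusted p = 0.451) and -0.32 in shHuR (adjusted p = 0.540). In shHuR it was at 22.5 and 22.2 CPM untreated and 17.5 and 18.3 CPM with HNE, without overlap. The difference of the 2 changes was -0.61 (SE 0.20, unadjusted p = 0.00913, adjusted p = 0.712), which did not pass the test. It was -0.84 (adjusted p = 0.0453) without replicate 1 of HNE-treated shControl cells and -0.32 (adjusted p = 0.671) without replicate 2, so that 1 library set its size. For PGD the changes were 0.05 in shControl and -0.21 in shHuR, and the difference between them was -0.26 (SE 0.099, unadjusted p = 0.0205, adjusted p = 0.712). No member was called in the test of HNE by line, where 0% of all genes were called by edgeR and 6.73% had an unadjusted p under 0.05, with DESeq2 and limma calling none of the 9 and 1 to 5 of all genes.

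**Figure D4:**
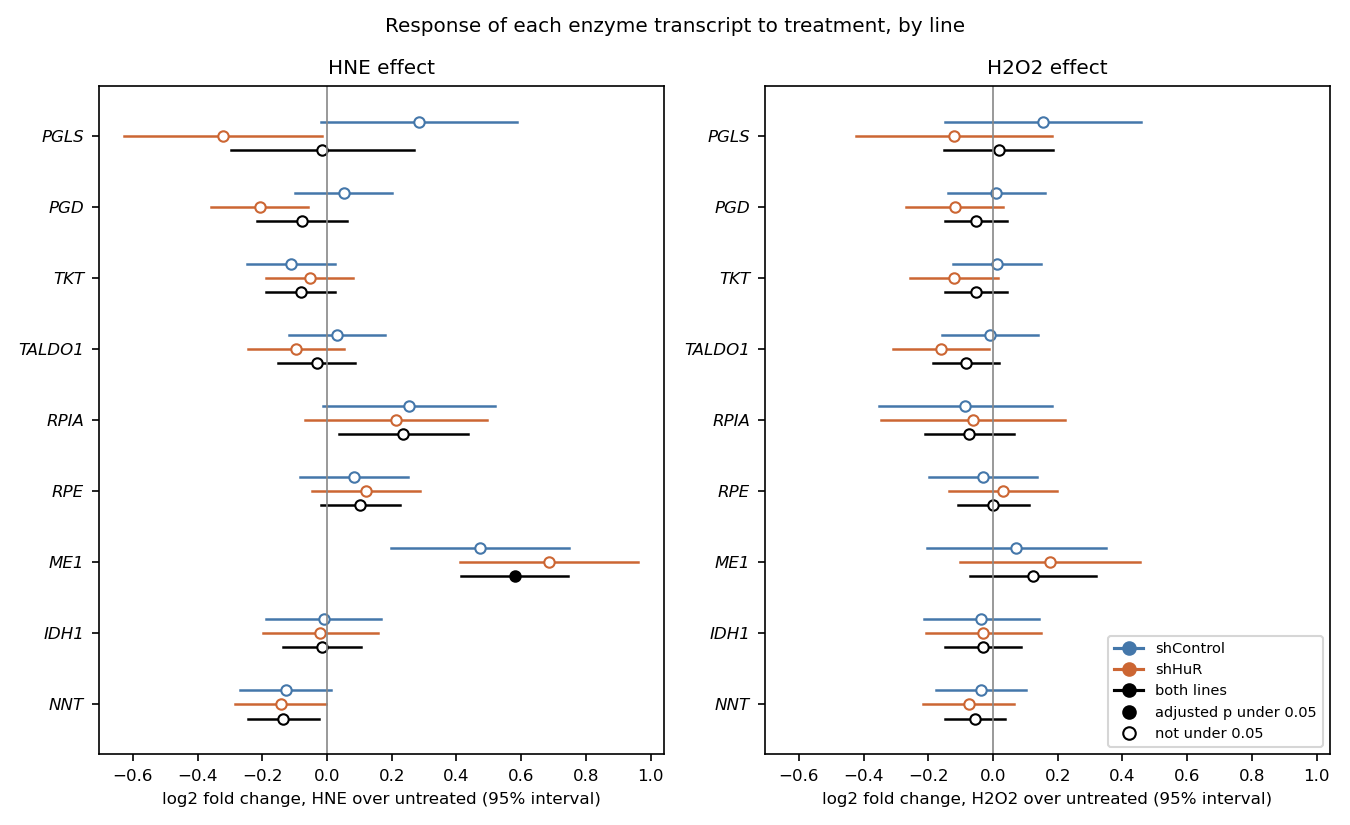
Log2 fold change of HNE (left) and H2O2 (right) over untreated cells for each transcript, with 95% intervals, in shControl, in shHuR and over both lines; filled points had an adjusted p under 0.05 in the edgeR test. ME1 with HNE over both lines (0.58) is the only filled point, and all H2O2 values over both lines lie between -0.08 and 0.12.

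H2O2 at 225 µM for 18 h moved no member past the threshold in either line or over both, where edgeR called 0% of all genes and 4.34%, 3.37% and 5.45% had an unadjusted p under 0.05 in shControl, in shHuR and over both lines. Unadjusted p was under 0.05 for 1 of 9 members in shHuR, for none in shControl or over both lines, and DESeq2 and limma called none of the 9 and 1 to 5 of all genes in each of these comparisons. The log2 changes over both lines ran from -0.08 for TALDO1 (95% interval -0.19 to 0.02) to 0.12 for ME1 (95% interval -0.07 to 0.32). ME1 was at 18.7 and 25.7 CPM in H2O2-treated shControl cells and at 21.6 and 21.3 CPM in H2O2-treated shHuR cells. The shControl pair lay on either side of the untreated pair, and the shHuR pair lay above it. TALDO1 was at 118 and 124 CPM with H2O2 and at 138 and 132 CPM untreated in shHuR, a log2 change of -0.16 (unadjusted p = 0.0370, adjusted p = 0.9997). The H2O2 response did not differ between the lines for any member by the test (smallest unadjusted p 0.148, for TALDO1), where 0% of all genes were called by edgeR, 3 by DESeq2 and 0 to 3 by limma, and 3.62% had an unadjusted p under 0.05. The HNE and H2O2 comparisons of a line share its untreated libraries.

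Among other genes of the same chemistry, from lists of other NADPH producers, NAD kinases and sugar phosphate enzymes, 22 of 23 were found in the table and 20 were tested. Over all treatments 12 of the 20 passed the line test, of which 4 were higher and 8 were lower in shHuR cells. Of all genes tested, 29.9% were called and 15.9% were lower. The median log2 difference of the 20 was -0.11. The lists were chosen with earlier results of these data known, so counts from them are no result about the lists as groups. Untreated cells gave 3 of 20 (SHPK higher, ME2 and NADKD1 lower), HNE-treated cells 4 (DERA higher, H6PD, IDH2 and NADKD1 lower) and H2O2-treated cells 1 (H6PD, lower), where 7.98%, 8.27% and 7.19% of all genes were called. None of the 20 was called for HNE, for H2O2 or for the difference of a response between the lines.

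Of the 10 tested genes on the list of other NADPH producers, 5 were lower and 1 higher in shHuR over all treatments. The background was the same, 29.9% called and 15.9% lower. Which cofactor each of these enzymes uses was not tested, so the counts do not describe NADPH production. H6PD, the enzyme of the endoplasmic reticulum that makes NADPH there, was at 35.3 to 47.9 CPM in shControl and at 23.0 to 36.8 CPM in shHuR, overlapping ranges, with a log2 difference of -0.51 (SE 0.072, adjusted p = 5.35e-05). In HNE-treated cells the difference was -0.74 and in H2O2-treated cells -0.44, both called. Mitochondrial ME2 (-0.23), MTHFD2L (-0.33), GLUD1 (-0.17) and IDH2 (-0.19) were lower, and IDH2, the mitochondrial isocitrate dehydrogenase, was at an adjusted p of 0.0517 without HNE-treated shHuR replicate 1. MTHFD2, a mitochondrial folate enzyme, was higher (0.22). Of the 2 NAD kinases, NADKD1 (NADK2), the mitochondrial one, was lower in shHuR (-0.27). Among 8 tested sugar phosphate enzymes 5 were called, against 29.9% of all genes. DERA (0.26), SHPK (0.19) and C12orf5 (TIGAR, 0.21) were higher, and RBKS (-0.65, ribokinase, 1.61 to 4.12 CPM over the 12 libraries) and PGM2 (-0.15) were lower. SHPK, sedoheptulokinase, and RBKS had fractional counts in the table, so their values are uncertain.

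The 2 genes whose log2 CPM most resembled that of each member over the 12 libraries, among 11268 genes with a mean of at least 5 CPM, were named as a description by Pearson's r. They share libraries and depth with the members. For ME1 they were FTL, the ferritin light chain (r = 0.899), and CBX6 (r = 0.896). RPIA was matched by KIAA1147 and NFKBIL1, and since both split by line, r is given after each line's mean was removed, 0.971 and 0.822. NNT, which also differed between the lines, was matched by JAKMIP1 and THBS3, with r of 0.916 and 0.850 after each line's mean was removed. For the oxidative branch the genes were STX10 (0.921) and DPP3 (0.918) with PGLS, and IGFBP2 (0.931) and SSR4 (0.922) with PGD. The non-oxidative branch gave BCL2L2-PABPN1 (0.865) and RPL32 (0.851) with TKT, TERC (0.936) and NANS (0.918) with TALDO1, and CCT5 (0.961) and FASTKD2 (0.946) with RPE. IDH1 was matched by PDIK1L (0.938) and PRKAR1A (0.922).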

How the data were processed

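RNA of 12 HEK293T libraries (2 per line and treatment) was sequenced as single-end reads from a directional kit after rRNA removal, per the labels' protocols. The authors deposited estimated counts per gene and FPKM per gene. The submitters' processing notes name cutadapt 1.8, Bowtie2 2.2, TopHat2 2.1, Cufflinks 2.2, Cuffnorm and Cuffdiff with the builds GRCh37 and hg19, and the counting program, annotation and strand setting are not given in the sources used here. Of the deposited estimated counts, 2.06% of values were fractional, and they were rounded. None of the 9 genes had fractional values. Sequences and positions come from GENCODE 29 and RefSeq on GRCh38, another build than the reads' build.

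CPM used TMM normalization. Group means over all 12 libraries were fitted with edgeR 4.0.16 (R 4.3.3; filterByExpr, minimum count 10; 16005 of 23615 genes; quasi-likelihood F-test; Benjamini-Hochberg adjustment over all genes tested; threshold 0.05). Comparisons over all treatments or both lines added treatment or line as a covariate, the latter on the 8 libraries concerned. Standard errors came from the F statistic, and intervals cover 95%. TMM factors were 0.965 to 1.03 and the biological coefficient of variation was 8.32%. Alternatives used limma 3.58.1, DESeq2 1.42.0, other scaling and filters, a replicate block, and each library left out. The fits were tested on simulated data. The members and lists were chosen with earlier results of these data known. The text names all 9 members, ELAVL1 and HMOX1, the listed genes with an adjusted p under 0.05 in at least 1 comparison, and the 2 genes most like each member. The electrophile response genes NQO1 (log2 change 0.69 with HNE over both lines, adjusted p = 0.0270) and TXNRD1 (0.62, adjusted p = 0.00136) were checks too.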

Additional observations from a re-analysis of the deposited data

How the results depend on the processing

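For 68 results on single genes under 1412 alternatives in all, 1348 kept their direction and side of the threshold, 19 lost the call, 14 gained it and 31 changed sign. RPIA was called between the lines in all 22 alternatives of each of the 4 line comparisons, and NNT over all treatments in all 22. The number of members called with HNE-treated lines compared was 2 with no filter on low counts, against 1. For HNE in shControl it was 1 with no filter, against 0. For HNE in shHuR it was 1 with DESeq2, with no filter and with only the groups compared, against 0. For HNE over both lines it was 0 with limma on log2(FPKM + 1), filtered or not, and on log2(FPKM + 0.1), against 1. Leaving out 1 library at a time gave 1 to 2 members for the line difference with HNE, 0 to 3 for HNE in shControl, 0 to 1 for HNE in shHuR, 0 to 1 for HNE over both lines and 0 to 1 for HNE by line. A group left with 1 library is then assumed to vary like the other groups. The causes were not tested.

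The sign changes were all in uncalled values near 0. The RPE change with H2O2 over both lines, 0.0012, was -0.000763 with no filter, -0.000373 with a mean CPM of at least 1 and -0.000304 with averaged group means. Leaving out 1 library, log2 values ran from -0.143 to 0.0267 for PGLS, -0.00247 to 0.0617 for PGD and -0.0963 to 0.0131 for ME1 between the lines over all treatments. They ran from -0.192 to 0.0618 for PGLS and -0.0492 to 0.0197 for IDH1 with HNE over both lines. With H2O2 over both lines they ran from -0.0485 to 0.0633 for PGLS, -0.0338 to 0.0266 for RPE and -0.0719 to 0.0073 for IDH1. PGD ran from -0.00072 to 0.0433 between H2O2-treated lines and from -0.0409 to 0.134 with HNE in shControl. For RPIA the difference between the lines ran from -0.244 to 0.201 in the HNE response and from -0.0547 to 0.101 in the H2O2 response.

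Counts of all genes called moved more. Over the alternatives they were 242 to 2055 (1277 as reported) for untreated lines, 164 to 2061 (1324) with HNE, 290 to 1845 (1151) with H2O2 and 3898 to 5240 (4787) over all treatments. For HNE they were 0 to 859 (3) in shControl, 2 to 198 (12) in shHuR and 1 to 334 (39) over both lines. Where edgeR called 0 genes, the highest counts were 91, 33 and 117 for H2O2 in shControl, in shHuR and over both lines, and 103 and 36 for HNE and H2O2 by line. NQO1 lost its HNE call in 10 of 18 alternatives and TXNRD1 in 3.

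Samples with the same replicate number deviated from their group means with correlations of -0.081 to 0.107 over 15 pairs of groups. Such low values over all genes tested cannot show whether these samples shared a batch. With the number as a replicate block the ME1 change with HNE over both lines was 0.58 (adjusted p = 0.0185), and all genes called fell from 12 to 6 for HNE in shHuR and from 39 to 14 over both lines. With 2 libraries per group, the intervals set what size of change could be detected.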

Other observations

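RPIA lies on chromosome 2, and the tested genes nearest to it in the RefSeq order were looked at after the RPIA values had been seen. Places below count protein-coding genes in that order and say nothing of the distance in bases, which can be large. The adjacent gene EIF2AK3 had a log2 difference between the lines of 0.07 over all treatments (adjusted p = 0.441). FOXI3, a low transcript 3 places before RPIA, had -0.51 (adjusted p = 0.162), and KRCC1, 7 places before, had -0.60 (adjusted p = 7.81e-05), from 17.4 CPM in shControl to 11.5 CPM in shHuR. On the other side MRPS5, 7 places after, had -0.05 (adjusted p = 0.486), ZNF514 -0.30 (adjusted p = 0.000406) and ZNF2 0.16 (adjusted p = 0.0743).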
